A study of Mus musculus with 34 samples.

Results

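The genes described here are 9 markers and products of GABAergic interneurons: Gad1, Gad2, Slc32a1, Pvalb, Sst, Vip, Npy, Cck and Reln. They were chosen by symbol, and all 9 were found among the 23951 genes that each deposited table lists. The study asked how loss of the histone deacetylase HDAC1 in the brain, the 5XFAD model of amyloid pathology, and both together change hippocampal transcripts in aged mice. Hippocampal RNA from 20 mice was sequenced with a 3′ digital gene expression library, 1 mouse per library. Every mouse carried floxed Hdac1 alleles (Hdac1f/f). The 4 control mice carried nothing else, the 5 Hdac1 cKO mice carried Nestin-Cre, the 6 5XFAD mice carried the 5XFAD transgenes, and the 5 compound mice carried Nestin-Cre and the 5XFAD transgenes. The labels give an age of 13 to 14 months for the hippocampal control and Hdac1 cKO mice and 13 months for the 5XFAD and compound mice, and the methods describe the aged mice of the study as males. GFAP+ nuclei sorted from cortex of 3 control and 4 Hdac1 cKO mice were measured with another library kit; their labels give an age of 13 months.

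Inhibitory interneurons make GABA from glutamate with 2 glutamate decarboxylases, the products of Gad1 and Gad2, and load it into vesicles with the transporter encoded by Slc32a1. Interneurons of the hippocampus are told apart by what else they make: the calcium-binding protein parvalbumin (Pvalb) in fast-spiking basket and axo-axonic cells, the peptide somatostatin (Sst) in cells that contact distal dendrites, vasoactive intestinal peptide (Vip) in many cells that contact other interneurons, neuropeptide Y (Npy) and the secreted glycoprotein reelin (Reln) in neurogliaform and other dendrite-targeting cells, and cholecystokinin (Cck) in another kind of basket cell. The separation is not complete, since pyramidal cells also make Cck and dentate granule cells can make Npy. The Nestin-Cre transgene acts in neural progenitors, so neurons, interneurons included, and astrocytes lose Hdac1 while microglia do not. The 5XFAD transgenes are driven by the Thy1 promoter, which is active in neurons.

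All 9 genes matched the RefSeq promoter table, and the 150 bases before the start site are shown for 3 peptide genes and for Reln because they show how different the promoters of genes grouped under one cell class are. The RefSeq sequences (assembly GRCm38.p6) were placed on mm9, the build of the deposited tables, by an exact match, which was found for each gene but Vip. Sst lies on the minus strand of chr16:23889667-23890930, Cck on the minus strand of chr9:121398943-121404807, Npy on the plus strand of chr6:49772709-49779506 and Reln on the minus strand of chr5:21390272-21850523. The printed windows are chr16:23890931-23891080, chr9:121404813-121404962, chr6:49772559-49772708 and chr5:21850524-21850673. They are written 5′ to 3′ on the strand of the gene, and capitals mark TGACG or GGGCGG on either strand.
Sst: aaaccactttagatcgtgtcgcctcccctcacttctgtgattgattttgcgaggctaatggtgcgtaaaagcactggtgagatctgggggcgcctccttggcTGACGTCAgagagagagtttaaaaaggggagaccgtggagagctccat
Cck: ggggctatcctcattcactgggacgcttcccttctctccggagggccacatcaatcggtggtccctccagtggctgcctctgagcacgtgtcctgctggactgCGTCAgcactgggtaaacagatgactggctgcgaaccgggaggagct
Npy: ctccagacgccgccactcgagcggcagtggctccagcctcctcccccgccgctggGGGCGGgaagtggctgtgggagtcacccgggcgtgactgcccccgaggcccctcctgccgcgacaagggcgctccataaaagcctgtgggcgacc
Reln: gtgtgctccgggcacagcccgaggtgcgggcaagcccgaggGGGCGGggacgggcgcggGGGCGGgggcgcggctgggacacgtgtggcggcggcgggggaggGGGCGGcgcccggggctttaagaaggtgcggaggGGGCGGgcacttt
TGACGTCA, the full cyclic AMP response element, was present in the 250 bases before the start of 1 of the 9 genes, Sst, and in 1.55% of 32851 promoters of that length. TGACG, which the full element contains on both strands, was present in 4 of the 9 genes (Sst, Cck, Gad2 and Vip, the last read from the RefSeq sequence alone) and in 17.8% of all promoters. GGGCGG, the GC box, was present in 3 of the 9 (Gad1, Npy and Reln) and in 32.7% of all promoters. The printed Reln window was 80.0% G and C and the Sst window 52.0%. These are matches of letters, not measured binding.

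Levels are given in FPKM, a count of fragments divided by transcript length and by library size, as the authors deposited them. A library that counts only 3′ ends and is then divided by transcript length gives long transcripts such as Reln a low FPKM, so the order of genes is an order of deposited values. Over the 20 hippocampi, Cck had the highest mean of the 9 at 1555 FPKM and ranked 90th of all listed genes. Sst followed at 553 FPKM (rank 233) and Npy at 344 FPKM (rank 334). Pvalb stood at 94.5, Gad1 at 52.5, Gad2 at 23.2, Vip at 20.6 and Slc32a1 at 9.34 FPKM. Reln was lowest at 1.81 FPKM, rank 11524. The spread between mice of 1 group, as the SD of log2(FPKM + 1), ran from 0.139 for Gad2 to 0.413 for Vip, beside a median of 0.21 over the 8266 genes of at least 5 FPKM. Vip, Slc32a1, Npy and Sst had the highest SD of the 9 on that scale. Adding 1 before the log shrinks the SD of a gene as low as Reln.

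**Figure D1:**
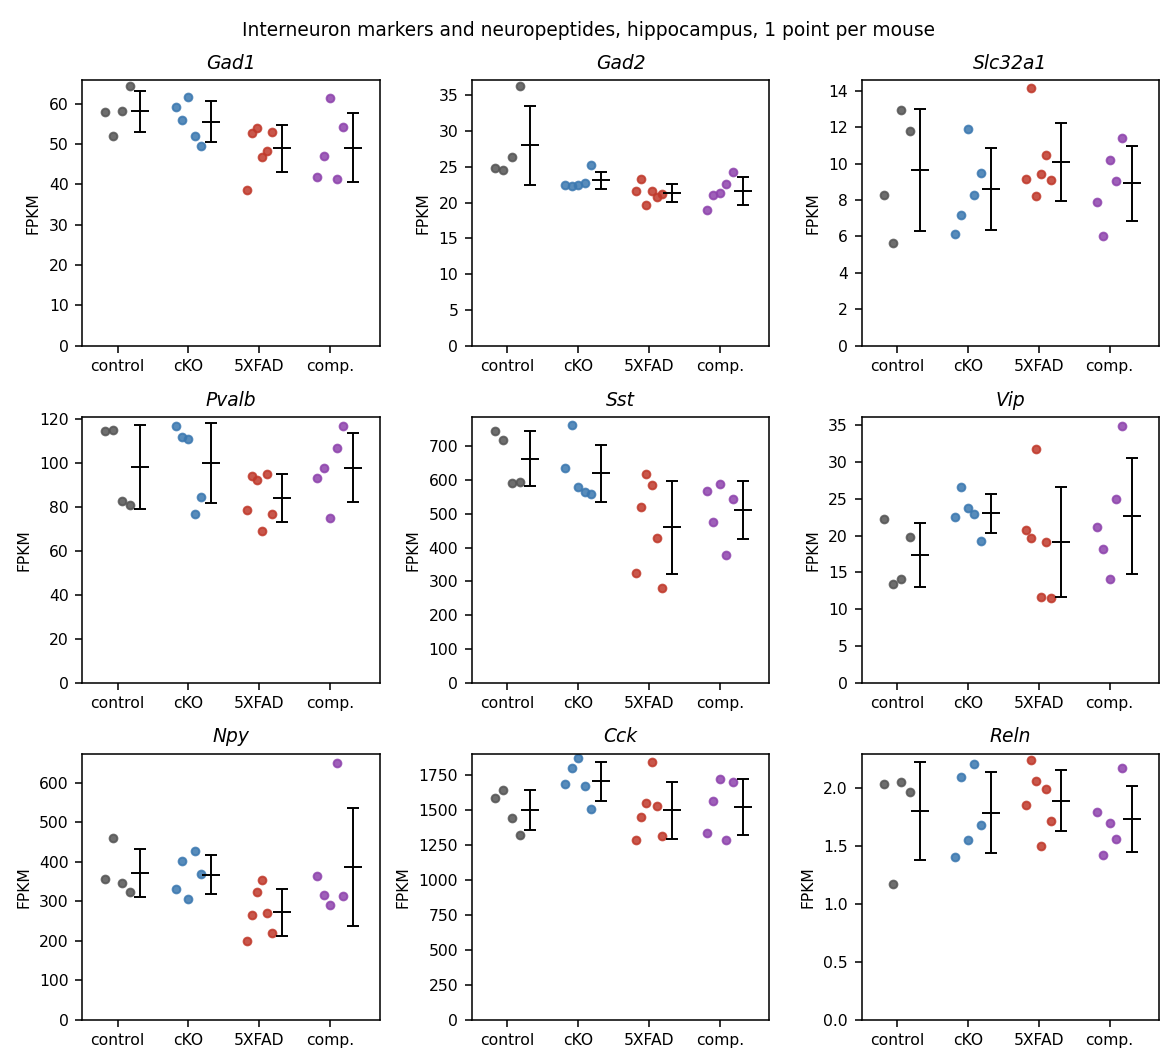
FPKM (vertical axis, linear from 0) of the 9 genes in each hippocampus, with 4 control, 5 Hdac1 cKO, 6 5XFAD and 5 compound (comp.) mice. Points are mice and the bar beside them is the mean ± SD. The 5XFAD and compound values of Gad2 lie below every control value, and Sst reaches down to 282 FPKM in 5XFAD.

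None of the 9 genes was differentially expressed in any hippocampal comparison. The thresholds for differential expression (DEG) were those of the study's methods: a change of 1.5-fold or more together with a p under 0.05 before adjustment. They were applied to limma fits on log2(FPKM + 1) of all genes averaging 0.5 FPKM or more. That rule called 3.36% of 14265 genes in Hdac1 cKO against control, 2.95% in 5XFAD against control, 4.24% in compound against control, 1.28% in compound against 5XFAD and 3.55% in compound against Hdac1 cKO, and 0 of the 9 genes in each. By the Benjamini-Hochberg adjusted p of the same limma fits, 0 of the 9 passed, while 0.154%, 0.708%, 0.662%, 0.00698% and 1.49% of all genes did, in the same order. The adjusted calls behind these shares numbered 22, 102, 95, 1 and 211. Leaving out 1 mouse gave 2 to 290, 69 to 129, 41 to 105, 1 to 4 and 148 to 261. At an unadjusted p under 0.05, 2, 4, 2, 1 and 1 of the 9 genes passed, beside 11.7%, 10.7%, 10.5%, 6.61% and 10.3% of all genes tested. The values of the groups did not overlap for 0, 1, 2, 0 and 0 of the 9, beside 4.23%, 2.9%, 4.27%, 0.607% and 3.34% of all genes. Comparisons that share a group share its mice, and the 9 genes were chosen with earlier results of these data known.

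In 5XFAD against control, the differences with an unadjusted p under 0.05 were all downward and included both GABA-synthesizing enzymes and 2 neuropeptides. Sst had the largest difference, at 0.69 times the control mean. The median log2 fold change of the 9 genes was -0.21, beside -0.01 over all genes, and 6 of the 9 were lower. Fewer cells of a type and less RNA in each cell cannot be told apart in bulk tissue.

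Gad1, a protein-coding gene on the plus strand of chr2:70391129-70440071, encodes the decarboxylase found throughout the neuron. It was measured at 57.9, 52.1, 58.1 and 64.5 FPKM in the control mice. It was at 59.1, 56.0, 61.5, 51.9 and 49.4 FPKM in the Hdac1 cKO mice, from 38.5 to 54.1 FPKM with a median of 50.5 in the 5XFAD mice and at 41.8, 47.0, 61.3, 41.2 and 54.3 FPKM in the compound mice. The groups overlapped, with 3 of 6 5XFAD mice below every control mouse. The log2 fold change of 5XFAD against control was -0.25 (95% interval -0.48 to -0.02, limma adjusted p = 0.433, exact permutation p = 0.0381), and the unadjusted limma p was under 0.05 in 11 of 21 alternative analyses. The order of the group means was control 58.2 ± 5.06 (SD, n = 4), Hdac1 cKO 55.6 ± 4.98 (n = 5), compound 49.1 ± 8.61 (n = 5) and 5XFAD 48.9 ± 5.86 FPKM (n = 6), and no neighbours in that order differed beyond their spread (exact two-sided permutation p = 0.460, 0.151 and 0.985).

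Gad2, on the plus strand of chr2:22477725-22549394, encodes the decarboxylase concentrated at nerve terminals. It was at 24.9, 24.6, 26.3 and 36.3 FPKM in the control mice. It was at 22.5, 22.3, 22.5, 22.8 and 25.3 FPKM in the Hdac1 cKO mice, from 19.6 to 23.4 FPKM with a median of 21.4 in the 5XFAD mice and at 18.9, 21.0, 21.3, 22.6 and 24.2 FPKM in the compound mice. All 6 5XFAD mice and all 5 compound mice were below the lowest control mouse, and 4 of 5 Hdac1 cKO mice were. Control mouse 4 stood apart from the other controls. The 7 thalamic markers summed to 79.9 FPKM in that mouse and to 26.0, 26.3 and 37.5 FPKM in the other controls, and their part in the Gad2 value was not tested.

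Against control, Gad2 differed by -0.36 on the log2 scale in 5XFAD (95% interval -0.61 to -0.11, limma adjusted p = 0.267), by -0.35 in compound (interval -0.63 to -0.07, adjusted p = 0.348) and by -0.25 in Hdac1 cKO mice (interval -0.51 to 0.00333, adjusted p = 0.434). The exact permutation p was 0.00476 for 5XFAD, the smallest that 4 against 6 mice can give, 0.0159 for compound and 0.0317 for Hdac1 cKO. Without control mouse 4 the limma log2 fold changes were -0.23 (adjusted p = 0.526), -0.22 (adjusted p = 0.615) and -0.125 (adjusted p = 0.704), each more than 1.5 times smaller in size. The group means were 28.0 ± 5.54 FPKM (SD, n = 4) in control, 23.1 ± 1.25 (n = 5) in Hdac1 cKO, 21.6 ± 1.96 (n = 5) in compound and 21.4 ± 1.22 (n = 6) in 5XFAD. Neighbours among the last 3 did not differ beyond their spread (exact permutation p = 0.238 for compound against Hdac1 cKO and 0.838 for compound against 5XFAD), while 5XFAD against Hdac1 cKO, the ends of that run, had p = 0.0368.

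Slc32a1, on the plus strand of chr2:158436494-158441484, encodes the vesicular GABA transporter that every GABAergic terminal uses. It was at 8.25, 5.65, 12.9 and 11.8 FPKM in control, 6.11, 7.20, 11.9, 8.27 and 9.47 FPKM in Hdac1 cKO, 8.20 to 14.1 FPKM with a median of 9.29 in 5XFAD and 7.92, 6.04, 10.2, 9.06 and 11.4 FPKM in compound mice. All 4 groups overlapped. The log2 fold change against control was 0.10 in 5XFAD (95% interval -0.34 to 0.53), -0.12 in Hdac1 cKO (-0.62 to 0.37) and -0.07 in compound (-0.57 to 0.43). A fall of the size of the Gad2 difference in 5XFAD lies just outside the first of these intervals and inside the others.

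Sst is the peptide of dendrite-targeting interneurons, the oriens-lacunosum moleculare cells among them. It was at 746, 718, 591 and 595 FPKM in control, 635, 762, 581, 564 and 560 FPKM in Hdac1 cKO, 282 to 617 FPKM with a median of 474 in 5XFAD and 567.8, 476, 589, 377 and 543 FPKM in compound mice. All 5 compound mice and 5 of 6 5XFAD mice were below the lowest control. The 5XFAD mice were also the most spread, with a coefficient of variation of 29.9% against 12.2% in control.

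In 5XFAD against control the log2 fold change of Sst was -0.58 (95% interval -1.04 to -0.12, limma adjusted p = 0.351), just short of the 1.5-fold threshold. It was -0.39 in compound (interval -0.67 to -0.10, adjusted p = 0.279) and -0.10 in Hdac1 cKO mice (interval -0.33 to 0.14, adjusted p = 0.789). Exact permutation gave p = 0.0429, 0.0159 and 0.421. Without control mouse 1, the highest, the difference in 5XFAD was -0.52 (limma adjusted p = 0.496). Scaling each library to its pan-neuronal markers, or leaving out control mouse 3 or 4 or 5XFAD mouse 2, 3 or 4, carried Sst past the threshold in 5XFAD, with log2 fold changes from -0.60 to -0.67. It was -0.45 without 5XFAD mouse 6 and -0.46 with quantile normalization. 5XFAD mouse 6 had the lowest Sst value and a thalamic marker sum of 95 FPKM, against 21.6 to 36.5 FPKM in the other 5XFAD mice, and the part of these markers in its Sst value was not tested. Compound against Hdac1 cKO gave -0.29 for Sst (interval -0.55 to -0.02, limma adjusted p = 0.428, exact permutation p = 0.0794), and -0.18 without compound mouse 4. The order of means was control 663 ± 81.0, Hdac1 cKO 620 ± 84.7, compound 511 ± 85.9 and 5XFAD 460 ± 138 FPKM (SD, n = 4, 5, 5 and 6), and the last 2 did not differ beyond their spread (exact permutation p = 0.422).

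Npy, the peptide of neurogliaform, ivy and many Sst cells, had its lowest mean in 5XFAD. It was at 356, 459, 345 and 323 FPKM in control, 332, 402, 306, 426 and 368 FPKM in Hdac1 cKO, 198 to 354 FPKM with a median of 267 in 5XFAD and 363, 315, 291, 650 and 312 FPKM in compound mice. In 5XFAD, 4 of 6 mice were below every control mouse. Compound mouse 4, at 650 FPKM, stood far above the other compound mice. That mouse also had the highest glial marker sums of its group: 1890 FPKM for 6 oligodendrocyte markers against 1154 to 1358 in the other compound mice, 1704 FPKM for 7 microglial markers against 847 to 1234, and 614 FPKM for 6 astrocyte markers against 511 to 525. Their part in its Npy value was not tested.

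Npy differed by -0.46 on the log2 scale in 5XFAD against control (95% interval -0.81 to -0.12, limma adjusted p = 0.311, exact permutation p = 0.0476). Without control mouse 2 it was -0.36 (limma adjusted p = 0.526). Compound against 5XFAD gave 0.47 (interval 0.02 to 0.92, limma adjusted p = 0.738, exact permutation p = 0.0714), and without compound mouse 4 it was 0.26. The unadjusted limma p of that comparison was under 0.05 in 12 of 22 alternative analyses. Against control, Npy differed by -0.01 in Hdac1 cKO (interval -0.27 to 0.25) and by 0.0028 in compound mice (-0.51 to 0.52). Without compound mouse 4, compound against control was -0.20. The compound median was 315 FPKM, beside 351 in control and 368 in Hdac1 cKO. The order of means was compound 386 ± 150, control 371 ± 60.7, Hdac1 cKO 367 ± 49.3 and 5XFAD 272 ± 59.5 FPKM (SD, n = 5, 4, 5 and 6). The step from Hdac1 cKO down to 5XFAD had an exact permutation p of 0.0281, and the other steps p = 1 and 0.952.

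Pvalb, on the minus strand of chr15:78021544-78036830, encodes parvalbumin, the marker of fast-spiking cells. It was at 114, 115, 82.5 and 81.0 FPKM in control, 117, 112, 111, 76.8 and 84.4 FPKM in Hdac1 cKO, 69.0 to 95.1 FPKM with a median of 85.4 in 5XFAD and 93.4, 97.7, 75.02, 107 and 117 FPKM in compound mice. The control and Hdac1 cKO mice each fell into a higher and a lower set, and all groups overlapped. Pvalb differed by -0.21 on the log2 scale in 5XFAD against control (95% interval -0.50 to 0.08, exact permutation p = 0.190) and by 0.03 in Hdac1 cKO (-0.31 to 0.37). Leaving out 1 mouse moved the 5XFAD difference to between -0.295 and -0.127, with the smallest sizes without control mouse 1 or 2. In compound mice the mean was 98.0 ± 15.7 FPKM (SD, n = 5), beside 98.3 ± 19.1 (n = 4) in control.

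Vip is at chr10:4698927-4707323, on the minus strand in the mm9 annotation and on the plus strand in the RefSeq table of the later assembly. It was at 22.2, 13.4, 14.0 and 19.7 FPKM in control, 22.5, 26.6, 23.8, 23.0 and 19.2 FPKM in Hdac1 cKO, 11.5 to 31.8 FPKM with a median of 19.4 in 5XFAD and 21.1, 18.1, 14.1, 24.9 and 34.9 FPKM in compound mice. In Hdac1 cKO, 4 of 5 mice were above every control mouse. The difference there was 0.41 on the log2 scale (95% interval 0.08 to 0.74, limma adjusted p = 0.308, exact permutation p = 0.0556). Without control mouse 2 or control mouse 3, the 2 lowest, it was 0.30 or 0.32. The 5XFAD and compound values spread too widely to place against control, with intervals from -0.48 to 0.64 and from -0.18 to 0.85.

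Cck, which pyramidal cells and a class of basket cells share, was at 1582, 1643, 1441 and 1324 FPKM in control, 1686, 1797, 1870, 1670 and 1503 FPKM in Hdac1 cKO, 1284 to 1845 FPKM with a median of 1491 in 5XFAD and 1333, 1561, 1721, 1288 and 1697 FPKM in compound mice. In Hdac1 cKO, 4 of 5 mice were above every control mouse. That is a log2 fold change of 0.19 (95% interval 0.01 to 0.37, limma adjusted p = 0.407, exact permutation p = 0.0794), and of 0.13 without control mouse 4, the lowest, and 0.12 (limma adjusted p = 0.609) with each library scaled to its pan-neuronal markers. The summed FPKM of 6 excitatory neuron markers was also higher there, at 896 to 949 in Hdac1 cKO against 726 to 895 in control, and its part in the Cck values was not tested. The intervals against control reached from -0.24 to 0.23 in 5XFAD and from -0.20 to 0.23 in compound mice, so a change in Cck of 1.5-fold in either group lies outside them.

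Reln, which encodes reelin, was the flattest of the 9 between groups. It ran from 1.17 to 2.05 FPKM in control, from 1.40 to 2.20 FPKM in Hdac1 cKO, from 1.49 to 2.24 FPKM in 5XFAD and from 1.42 to 2.17 FPKM in compound mice. The 4 group means spanned 0.08 on the log2 scale. At these levels the intervals against control still reached -0.41 to 0.35 in compound mice.

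**Figure D2:**
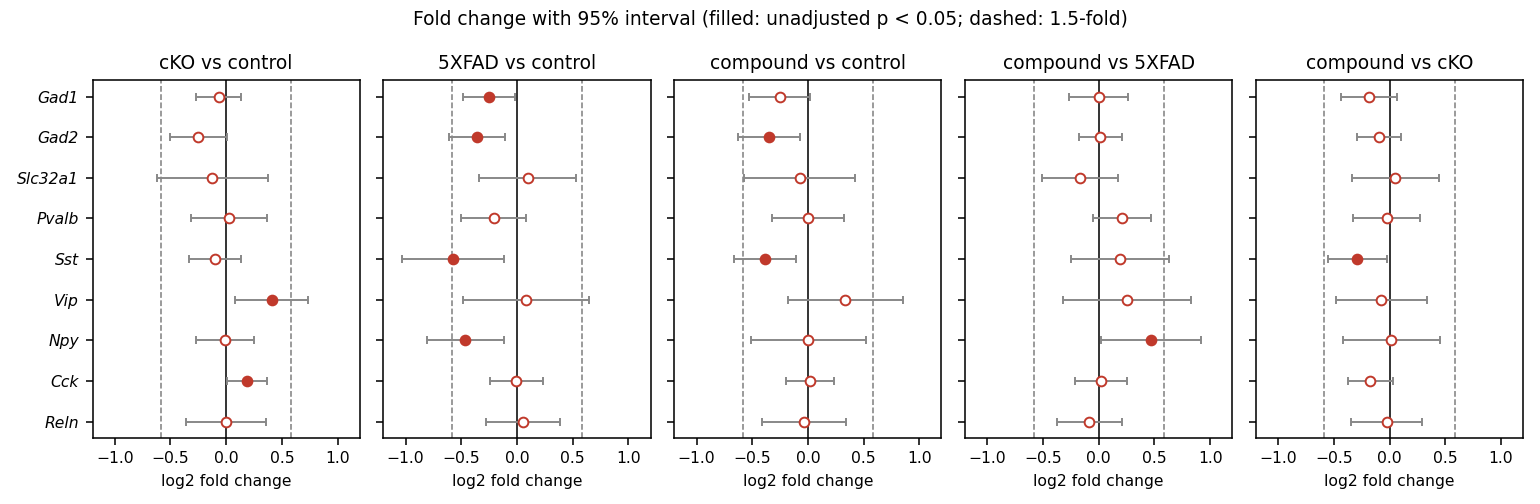
log2 fold change of the 9 genes (horizontal axis) in 5 hippocampal comparisons, from limma on log2(FPKM + 1), with the 95% interval as a bar. Filled points have an unadjusted p under 0.05 and dashed lines mark 1.5-fold. Filled points number 2, 4, 2, 1 and 1 from left to right, and none lies beyond a dashed line.

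A test of any difference among the 4 groups (the limma moderated F) had an unadjusted p under 0.05 for 3 of the 9 genes, Gad2 (adjusted p = 0.170), Sst (adjusted p = 0.246) and Npy (adjusted p = 0.347), beside 13.6% of all genes. By the adjusted p it called 0 of the 9 and 1.89% of 14389 genes. The interaction term asked whether Hdac1 loss acts differently on the 5XFAD background. It called 0 of the 9 genes and 0% of all genes at an adjusted p under 0.05, 0 of the 9 and 4.07% of all genes as DEG, and 0 of the 9 and 8.97% at an unadjusted p under 0.05. The largest interaction terms were those of Npy, 0.48 (95% interval -0.09 to 1.04, limma adjusted p = 0.619), Sst, 0.29 (-0.25 to 0.83, adjusted p = 0.753), and Gad2, 0.26 (-0.02 to 0.55, adjusted p = 0.588). Leaving out 1 mouse lowered these to 0.27 for Npy (without compound mouse 4), 0.16 for Sst (without 5XFAD mouse 6) and 0.14 for Gad2 (without control mouse 4). An interaction of 1.5-fold lies inside the intervals of Slc32a1, Pvalb, Sst, Vip and Npy.

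Library checks followed the labels. Hdac1 was at 5.91 to 10.7 FPKM in the 10 mice without Nestin-Cre and at 1.15 to 3.03 FPKM in the 10 mice with it. Thy1, whose promoter drives the transgenes, was at 303 to 388 FPKM without and 1563 to 2357 FPKM with 5XFAD. Each of the 10 hippocampal subfield markers averaged at least 1 FPKM in every hippocampal group, and 1 of them, Dsp, was lower in compound than in control (-0.76), 5XFAD (-0.71) and Hdac1 cKO mice (-0.70; DEG in each). All 10 were lower in compound than in Hdac1 cKO mice, with a median log2 fold change of -0.30 beside -0.29 for Sst in that comparison, and their part in the Sst value was not tested. Ttr, the main product of choroid plexus, ran from 576 to 20146 FPKM in control, 56.5 to 1608 in Hdac1 cKO, 53.8 to 7892 in 5XFAD and 58.9 to 13910 FPKM in compound mice. All 8 choroid plexus markers were called lower in Hdac1 cKO than in control (DEG). With only the mice under 2000 FPKM of Ttr, which leaves 1 control mouse, assumed to vary like the mice of the other group, the log2 fold changes against control were -0.58 for Sst, -0.22 for Gad2, -0.21 for Npy and -0.49 for Pvalb in 5XFAD, -0.61 for Sst and -0.16 for Gad2 in compound and 0.04 for Vip, -0.105 for Gad2 and 0.10 for Cck in Hdac1 cKO mice. Npy in compound against 5XFAD was then 0.26. The part of choroid plexus in these results was not tested further.

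Of 12 pan-neuronal markers, 0 were called in any of the 5 comparisons, and their summed FPKM was 2503 to 2836 in control, 2600 to 2999 in Hdac1 cKO, 2497 to 2737 in 5XFAD and 2712 to 2909 in compound mice. Of 6 excitatory neuron markers 0 were called, and their median log2 fold change against control was 0.22 in Hdac1 cKO, where all 6 were higher, 0.21 in 5XFAD and 0.19 in compound mice. Glial markers moved in the 5XFAD groups: 5 of 7 microglial markers were called higher in 5XFAD and in compound against control, with summed FPKM of 213 to 272 in control, 601 to 897 in 5XFAD and 847 to 1704 in compound mice. Of 6 astrocyte markers, 1 was called higher in 5XFAD and 2 in compound against control. Called or not, 2 of the 6 were lower in 5XFAD and 1 in compound mice. The summed FPKM of the 9 genes was 2457 to 3032 in control, 2621 to 3187 in Hdac1 cKO, 1978 to 2944 in 5XFAD and 2449 to 2796 in compound mice. The part of glial RNA in the lower values of Gad1, Gad2, Sst and Npy in 5XFAD was not tested.

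The other genes of these pathways were taken from lists chosen with earlier results known. Of 8 genes of GABA transport and breakdown, up to 7 were tested, and Slc6a13 alone was called in the 5 comparisons, in which the rule called 1.28% to 4.24% of all genes. Slc6a13 encodes a GABA transporter of meninges and choroid plexus, and it fell from 1.31 ± 0.77 FPKM (SD, n = 4) in control to 0.34 ± 0.13 (n = 5) in Hdac1 cKO, a log2 fold change of -0.71 (limma adjusted p = 0.276), and to 0.44 ± 0.32 (n = 5) in compound mice, -0.63 (adjusted p = 0.455). It was also lower in compound than in 5XFAD in the limma fit (-0.81, adjusted p = 0.734), where it averaged 1.73 ± 1.24 FPKM (n = 6). The choroid plexus markers were called lower for 8 of 8 in Hdac1 cKO and 4 of 8 in compound against control. In compound against 5XFAD, 0 of 8 were called, but all 8 were lower, with a median log2 fold change of -1.14. The median over all genes there was -0.000456. The part of these markers in Slc6a13 was not tested.

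Of the 24 other genes of interneuron subtypes, 23 were tested. In compound against control, 3 were called lower and 0 higher, while the rule called 4.24% of all genes there, 290 of 608 of them lower. Cort, the somatostatin-like peptide cortistatin, fell from 17.2 ± 4.94 FPKM (SD, n = 4) to 7.84 ± 1.47 (n = 5), a log2 fold change of -1.01 (95% interval -1.46 to -0.56, limma adjusted p = 0.0546). Tac1, the precursor of substance P, fell from 17.3 ± 3.56 to 10.9 ± 2.70 FPKM (-0.63, adjusted p = 0.180). Ndnf, a marker of neurogliaform cells, fell from 2.87 ± 0.85 to 1.64 ± 0.79 FPKM (-0.59, adjusted p = 0.432). In Hdac1 cKO against control, Calb2 (calretinin) fell from 27.8 ± 12.3 to 16.7 ± 2.47 FPKM (-0.61, adjusted p = 0.337). Of the 23 genes, 1 was called lower and 0 higher there, while the rule called 3.36% of all genes. Called or not, 13 of the 23 had a log2 fold change below 0. In 5XFAD against control, 0 of the 23 were called. The median log2 fold change of the list stayed between -0.05 and 0.04 in these 3 comparisons.

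Of the 15 interneuron transcription factors, 13 or 14 were tested in each comparison. Nr2f2, which marks interneurons of caudal origin, fell from 11.2 ± 2.22 in 5XFAD to 7.27 ± 2.81 FPKM in compound mice (-0.62, adjusted p = 0.718). Lhx6, Sox6 and Satb1 were not called in these 5 comparisons.

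Among 13 other neuropeptides, of which 12 were tested, DEG calls were 2 in Hdac1 cKO, 3 in 5XFAD and 1 in compound mice against control, all lower than control. Over all genes tested, the same rule called 3.36%, 2.95% and 4.24%, with 409 of 480 calls lower in Hdac1 cKO, 177 of 425 in 5XFAD and 290 of 608 in compound mice. Cartpt, a peptide of dentate mossy cells, averaged 17.1 ± 3.33 FPKM (SD, n = 4) in control, 9.43 ± 2.57 (n = 5) in Hdac1 cKO, 6.74 ± 4.13 (n = 6) in 5XFAD and 9.52 ± 5.90 (n = 5) in compound mice, with log2 fold changes against control of -0.82 (limma adjusted p = 0.143), -1.34 (adjusted p = 0.0679) and -0.92 (adjusted p = 0.350). Gal (galanin) fell from 12.02 ± 3.56 to 6.83 ± 2.63 FPKM in Hdac1 cKO (-0.77, adjusted p = 0.271). In 5XFAD, Pomc (pro-opiomelanocortin) fell from 6.38 ± 0.28 to 4.13 ± 1.86 FPKM (-0.60, adjusted p = 0.348) and Adcyap1 (PACAP) from 2.17 ± 0.88 to 1.06 ± 0.54 FPKM (-0.64, adjusted p = 0.375). None of these passed an adjusted p under 0.05. The interaction term of Cartpt was 1.23 (95% interval 0.24 to 2.22, adjusted p = 0.467) and that of Pomc 0.80 (adjusted p = 0.458). The median log2 fold change of the 12 was -0.20 in Hdac1 cKO, -0.39 in 5XFAD and -0.12 in compound against control, beside medians over all genes between -0.01 and 0.

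Of the 10 genes of peptide processing, all tested, Pcsk1 (the prohormone convertase that cleaves peptide precursors early) fell from 5.16 ± 2.93 FPKM (SD, n = 4) in control to 2.74 ± 0.83 (n = 6) in 5XFAD (-0.63) and 2.43 ± 0.52 (n = 5) in compound mice (-0.74), with adjusted p of 0.413 and 0.335, where the rule called 2.95% and 4.24% of all genes. The other 9, Pcsk2, Cpe and Pam among them, were not called. Of 15 receptors for these peptides and for reelin, 11 were tested and 0 were called in the 5 comparisons. Sstr3, a somatostatin receptor of neuronal cilia, had an interaction term of -0.59 (95% interval -1.05 to -0.13, adjusted p = 0.451).

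**Figure D3:**
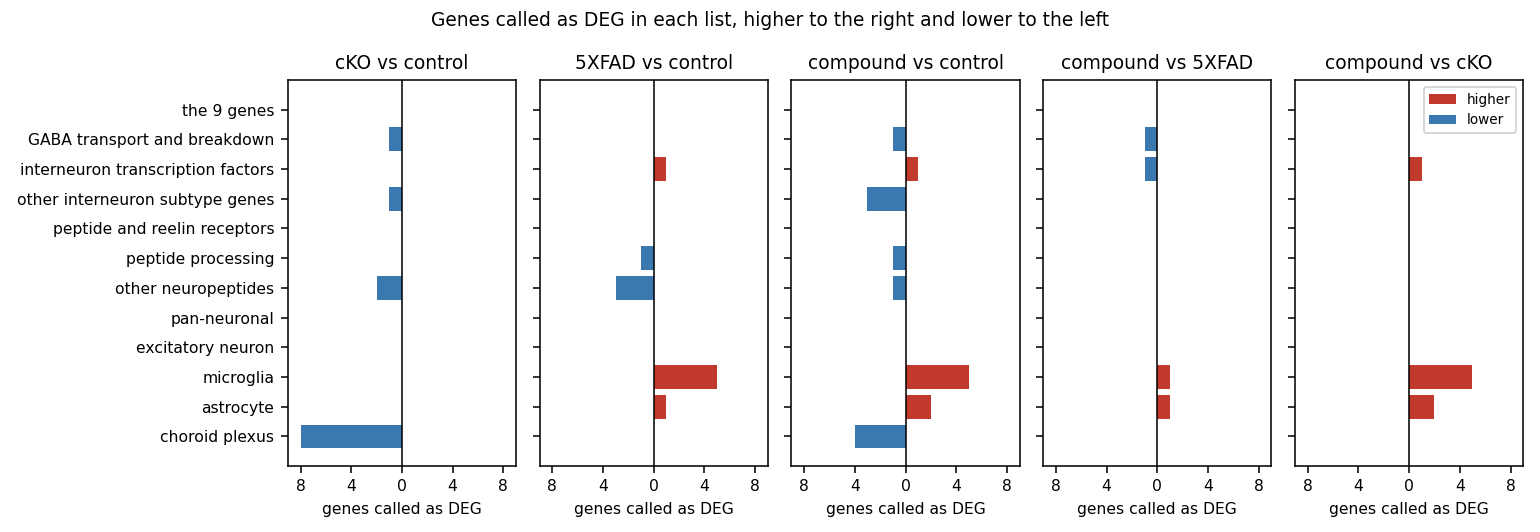
Number of genes called as DEG (horizontal axis; higher in red to the right, lower in blue to the left) in each gene list for 5 hippocampal comparisons. The row of the 9 genes is empty throughout, while 5 microglial markers are higher wherever a 5XFAD group is compared with a group without the transgenes and 8 choroid plexus markers are lower in Hdac1 cKO.

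How the 9 genes varied together was described by the Pearson correlation of each mouse's deviation from its group mean on the log2(FPKM + 1) scale, over the 20 hippocampi. These libraries share dissection and library construction, the values are not independent measures of interneurons, and no p is given. Sst and Cck varied together most (r = 0.694, Spearman rho = 0.668, r = 0.709 without the 2 mice farthest from the median of Sst). Pvalb and Vip followed (r = 0.556, rho = 0.445, 0.529 without 2 mice), then Vip and Reln (0.554, 0.591 and 0.488), Gad2 and Slc32a1 (0.553, 0.577 and 0.493) and Slc32a1 and Reln (0.544, 0.427 and 0.33). Gad1 and Gad2, the 2 enzymes of the same reaction, had r = 0.227. Sst and Npy, which many dendrite-targeting cells make together, had r = 0.207. The lowest of the 36 pairs was Gad1 and Npy (r = -0.372, rho = -0.423).

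**Figure D4:**
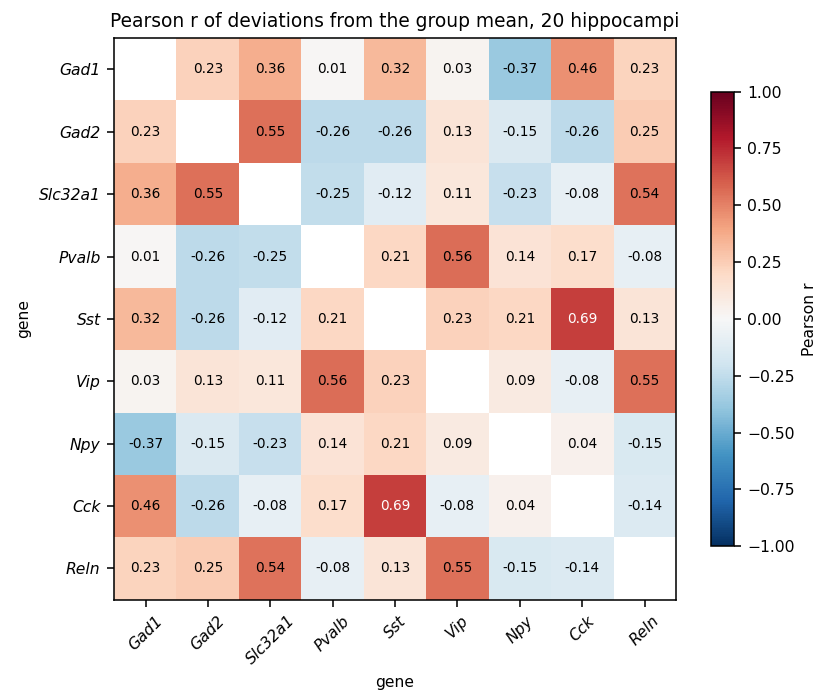
Pearson r between each pair of the 9 genes (both axes), from deviations of log2(FPKM + 1) from the group mean in 20 hippocampi; red is positive and blue negative. The highest value is that of Sst and Cck, 0.694, and the lowest that of Gad1 and Npy, -0.372.

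Each gene was also set against all genes that averaged 5 FPKM or more, 8265 in number for 8 of them and 8266 for Reln, which is itself below that level, and the 3 most alike were noted. The highest of so many correlations is high for any gene. For Gad1 the first 2 were Zfp281 (r = 0.783) and Resp18 (0.775). For Sst they were Tmed9 (0.865), Brk1 (0.837) and Bcl11a (0.822), and for Cck Bcl11a (0.874), Rab3a (0.855) and Nt5c2 (0.825), so that Bcl11a, a transcription factor of cortical and hippocampal neurons, was shared by both. For Slc32a1 they were Cxx1b (0.862), Ctdnep1 (0.819) and Necab2 (0.787), for Pvalb Timm50 (0.736), Ovca2 (0.734) and Elovl1 (0.712), and for Vip Fut9 (0.772), Chn2 (0.761) and Efr3a (0.748). For Npy they were Zfp637 (0.768), Coa6 (0.763) and S100a10 (0.749), and for Reln Rnf111 (0.741), Mir1957b (0.713) and Pitpna (0.712). For Gad2 they were Mir3071, Mir8110 and Snord11, all with r = 0.783. Each of these 3 short genes was above 0 in 1 of the 20 mice, control mouse 4, which is the mouse with the high Gad2 value, so this likeness rests on that mouse.

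In GFAP+ cortical nuclei the astrocyte markers summed to 2058 to 2401 FPKM, and neuronal transcripts were present as well, with the 12 pan-neuronal markers summing to 329 to 475 FPKM. The 9 genes summed to 161 to 278 FPKM. These libraries were made with another kit from another tissue fraction, so their levels are not set against those of the hippocampus. Hdac1 was at 14.5, 9.91 and 22.3 FPKM in the control and 9.71, 11.5, 5.80 and 8.73 FPKM in the Hdac1 cKO nuclei. Its groups overlapped, and the log2 fold change was -0.70 (95% interval -1.32 to -0.08, adjusted p = 0.984).

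The 9 genes did not separate the Hdac1 cKO from the control nuclei. Of the 8 tested, 0 were DEG (2.58% of 15070 genes were), 0 passed an adjusted p (0.0133%) and 1 had an unadjusted p under 0.05 (4.7%). None of the 8 had groups that did not overlap (5.72% of all genes). Slc32a1, at 0.16 to 0.54 FPKM, was below the filter of 0.5 FPKM and was not tested. Sst was at 86.6, 92.1 and 59.5 FPKM in control and 53.2, 43.0, 69.3 and 63.8 FPKM in Hdac1 cKO nuclei. The log2 fold change was -0.46 (95% interval -0.92 to -0.01, limma adjusted p = 0.984, exact permutation p = 0.143, where 3 against 4 cannot go below 0.0286). Without control 4 it was -0.65 and passed the DEG thresholds, and without control 3 it was -0.34. Vip was at 5.89, 1.78 and 0.32 FPKM in control and 2.99, 5.08, 2.78 and 4.03 FPKM in Hdac1 cKO nuclei, a log2 fold change of 0.66 (interval -0.40 to 1.72) that was 1.28, past the DEG thresholds, without control 1 and 0.08 without control 4. Gad1 (-0.21), Gad2 (-0.20), Pvalb (0.16), Npy (-0.37), Cck (0.12) and Reln (-0.07) had intervals that include 0. Leaving out 1 sample moved Npy to between -0.609 (without Hdac1 cKO 3) and -0.12 (without Hdac1 cKO 2) and Gad2 to between -0.295 (without control 1) and -0.0751 (without control 3).

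**Figure D5:**
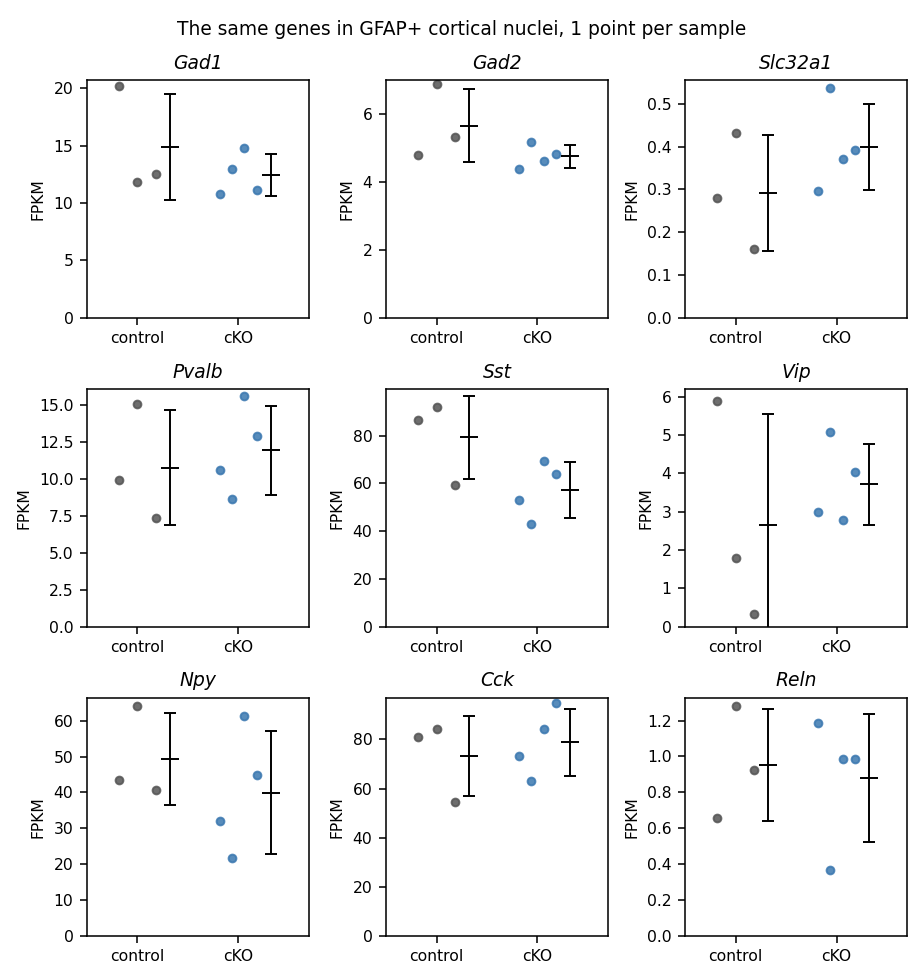
FPKM (vertical axis, linear from 0) of the 9 genes in GFAP+ cortical nuclei of 3 control and 4 Hdac1 cKO mice. Points are samples and the bar beside them is the mean ± SD. The groups overlap for all 9 genes, and Slc32a1 stays at or under 0.54 FPKM; the axis at 0 cuts the lower end of the Vip control bar, whose SD is larger than its mean.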

How the data were processed

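Hippocampal RNA of 20 mice and RNA of GFAP+ cortical nuclei from 7 were analysed. The authors deposited FPKM per gene, 1 table per mouse. Per the study's methods, collapsed reads from 3′ digital gene expression libraries of hippocampus were aligned with TopHat and quantified with Cufflinks 2.0.0 on mm9. Dividing 3′ reads by transcript length lowers the values of long transcripts. Counts were not used here, so the total depth is unknown; relative depth read from the smallest values differed up to 2.35 against 0.754 between hippocampal libraries. Depth limits the precision of low genes such as Reln most.

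All tests used log2(FPKM + 1) of the genes averaging 0.5 FPKM or more, with limma 3.58.1 (R 4.3.3; trend and robust). Fold changes on that scale understate changes of low genes. DEG were genes that changed 1.5-fold or more at p under 0.05 before adjustment, with Benjamini-Hochberg adjusted p over all genes tested. Each of the 9 genes was also compared by exact two-sided permutation tests between the 6 pairs of hippocampal groups (54 tests, not adjusted). Python 3.11.15, numpy 2.4.6 and pandas 2.3.3 were used. The test was checked on simulated data. The 9 genes and the gene lists were chosen with earlier results of these data known. Named besides the 9 genes were Hdac1, Thy1 and Ttr, up to 4 DEGs of smallest p per list and comparison, and the 3 genes most alike to each of the 9; other names were chosen after their values were seen. The labels name each library as a separate mouse sample and give no batch or date. Equal replicate numbers did not pair mice. Alternatives were other pseudocounts, filters, scalings, a quantile normalization, a replicate block, 1 fit of all groups, leaving out each mouse, and, added after seeing the data, only mice of low Ttr. Of the 34 samples, 7 were not analysed here. Some results are not reported here.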

Additional observations from a re-analysis of the deposited data

Results flagged for a closer look

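Of 45 sets of values (a gene in a group of 4 to 6 mice, or of 4 GFAP+ samples), 4 had 1 mouse far from the others, judged by its gap to the nearest mouse as a share of the range of the group; chance gives about 1 in 20 such sets. Gad2 was at 36.3 FPKM in control mouse 4, against 26.3 in the next control, a gap of 0.851 of the range. Gad2 in Hdac1 cKO mouse 5 was at 25.3 FPKM, against 22.8 in the next mouse, a gap of 0.84. Npy was at 650 FPKM in compound mouse 4, against 363 in the next compound mouse, a gap of 0.8. Reln in control mouse 2 was at 1.17 FPKM, against 1.96 in the next control, a gap of 0.908.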

How the results depend on the processing

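Under the planned settings other than leaving out a mouse, 557 of 585 values kept their direction and side of the threshold, and 27 changed sign, all with an unadjusted limma p above 0.05. The number of the 9 genes with an adjusted p under 0.05 was 0 under every setting run. Outside the setting with only low-Ttr mice, the number called as DEG was 0 in each comparison, with these exceptions. Sst was called (1 gene) in 5XFAD against control with pan-neuronal scaling (-0.597). Leaving out 1 mouse gave 0 to 1 in 5XFAD against control (Sst) and in GFAP+ nuclei (Sst or Vip), and 0 to 0 elsewhere. With only the mice of Ttr under 2000 FPKM, Sst in compound against control was -0.608. That setting leaves 1 control mouse, so its calls against control are not counted. Sign changes with only mice with Ttr under 2000 FPKM were, as log2 fold changes, Hdac1 cKO against control Slc32a1 0.0217, Pvalb -0.21 and Npy 0.0331, 5XFAD against control Vip -0.545, Cck 0.0874 and Reln -0.15, compound against control Slc32a1 0.105, Pvalb -0.224, Vip -0.0278 and Cck -0.0229, compound against 5XFAD Gad1 0.083, Sst -0.0328 and Cck -0.11, the interaction Vip 0.478 and Reln 0.113. Sign changes with pan-neuronal scaling were, as log2 fold changes, Hdac1 cKO against control Pvalb -0.044, compound against control Pvalb -0.0566, Npy -0.0545 and Cck -0.0412, compound against 5XFAD Gad2 -0.0229 and Cck -0.0147. Sign changes with quantile normalization were, as log2 fold changes, Hdac1 cKO against control Npy 0.0314 and Reln 0.0632, 5XFAD against control Cck 0.103, compound against control Pvalb -0.0102, Npy -0.00578 and Cck -0.000984, compound against 5XFAD Cck -0.0937, compound against Hdac1 cKO Npy -0.039. Sign changes with median scaling were, as log2 fold changes, Hdac1 cKO against control Npy 0.00822 and Reln 0.00987, compound against 5XFAD Gad1 0.0146. Sign changes with pseudocount 0.1 were, as log2 fold changes, Hdac1 cKO against control Reln 3.3e-05. Sign changes with replicate block were, as log2 fold changes, Hdac1 cKO against control Reln 0.00812, 5XFAD against control Cck 0.0264, compound against control Pvalb -0.0669 and Cck -0.026, compound against 5XFAD Gad1 0.0227 and Cck -0.0122, GFAP+ nuclei Reln 0.082. Sign changes with ratios of group means were, as log2 fold changes, compound against control Pvalb -0.00476, compound against 5XFAD Gad1 0.00571. When 1 mouse was left out, Hdac1 cKO against control crossed 0 for Slc32a1 (-0.332 to 0.024), Pvalb (-0.0576 to 0.117), Npy (-0.0747 to 0.0948) and Reln (-0.122 to 0.0476). When 1 mouse was left out, 5XFAD against control crossed 0 for Slc32a1 (-0.112 to 0.244), Vip (-0.078 to 0.203), Cck (-0.0696 to 0.0392) and Reln (-0.0657 to 0.0975). When 1 mouse was left out, compound against control crossed 0 for Slc32a1 (-0.281 to 0.0754), Pvalb (-0.0849 to 0.0915), Npy (-0.202 to 0.11), Cck (-0.0411 to 0.0734) and Reln (-0.149 to 0.0139). In compound against 5XFAD, leaving out 1 mouse crossed 0 for Gad1 (-0.0846 to 0.0559), Gad2 (-0.0271 to 0.0579) and Cck (-0.0241 to 0.0859). In compound against Hdac1 cKO, leaving out 1 mouse crossed 0 for Slc32a1 (-0.0489 to 0.168), Pvalb (-0.117 to 0.064), Vip (-0.242 to 0.07), Npy (-0.189 to 0.0992) and Reln (-0.0825 to 0.0254). In the interaction, leaving out 1 mouse crossed 0 for Gad1 (-0.0197 to 0.121), Slc32a1 (-0.193 to 0.163), Vip (-0.321 to 0.0026) and Reln (-0.135 to 0.0386). In GFAP+ nuclei, leaving out 1 mouse crossed 0 for Gad1 (-0.346 to 0.0155), Pvalb (-0.0621 to 0.41), Cck (-0.0801 to 0.231) and Reln (-0.178 to 0.082). Over all genes, adjusted calls were 0 with the replicate block against 22 without it in Hdac1 cKO, 48 against 102 in 5XFAD and 34 against 95 in compound mice against control, and 1 and 220 with all 4 groups in one fit for Hdac1 cKO and compound. DEG calls over all genes in 5XFAD against control were 641 with a pseudocount of 0.1 and 688 by the ratio of means, against 425. In compound against 5XFAD they were 325 and 341, and 299 with low Ttr, against 184. DEG counts with low Ttr against control and for the interaction are not given, because 1 control mouse is left. Mice with equal replicate numbers did not deviate together (27 pairs, r from -0.13 to 0.1, median 0.0291). With the replicate block, Sst in 5XFAD against control was -0.41 (limma adjusted p = 0.685). The causes of these shifts were not tested. Over the alternatives other than low Ttr, the limma adjusted p in 5XFAD against control ran from 0.172 to 0.685 for Sst. It ran from 0.11 to 0.628 for Gad2 and from 0.175 to 0.660 for Npy. Depth is unknown without counts and limits Reln and Slc32a1 in particular.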
